A study of Mus musculus with 6 samples.

Results

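Haem breakdown and iron regulation were followed through 4 genes, taken by name from the platform annotation: Hmox1, Fth1, Ireb2 and Aco1. These carry 5 of the 11502 probes on the array, 1 probe each for Hmox1 (probe 52f7), Ireb2 (probe 35d4) and Aco1 (probe 101h6), and 2 for Fth1 (probes 5e9 and 72a6). The genes were singled out with earlier results on the NY1DD arrays in view, so their NY1DD values and the strain differences built on them are given as a description, with no test. Shares of all features set beside these values show where they lie and are not p-values. Of the 5 probes, 4 had enough values to be fitted, and probe 72a6 of Fth1 did not. In GRCm38.p6 (RefSeq), Hmox1 lies on chr8:75093618-75100593, Fth1 on chr19:9980600-9985111, Ireb2 on chr9:54862658-54912534 and Aco1 on chr4:40143265-40199009; the position of each cDNA probe within its gene is not given in the sources used here.

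Brain RNA of male mice aged 9 weeks was hybridised to BMAP cDNA arrays printed with mouse brain clones. Each of the 6 arrays compared naloxone (Cy5), an antagonist of opioid receptors, with saline (Cy3), 10 min after treatment, within 1 strain. On 3 arrays the strain was NY1DD, a transgenic line that models sickle cell disease and, as background, carries human alpha and sickle beta globin transgenes on a deletion of the mouse beta major globin gene, and on the other 3 it was wild-type C57BL/6J. The globin alleles, the naloxone dose, and whether animals were pooled or shared between arrays were not given in the sources used here, so the errors measure the spread between arrays, which may be technical. Values are log2 ratios centred on the median of their array, and the direction, naloxone over saline, is likely but not stated; were it saline over naloxone, all signs given here would be opposite. No array had its dyes swapped, so a dye bias of a probe cannot be told apart from naloxone in a strain mean, whereas a bias common to all arrays cancels in NY1DD minus C57BL/6J. The titles carry a number of unstated meaning that no array of one strain shares with the other, and C57BL/6J replicates 1 and 2 have the same one. Should it mark a batch, that batch would not cancel and cannot be told apart from strain. These are ratios and not levels, so neither the tissue label nor the abundance of a gene could be checked, and in brain tissue a change in the number of cells of a type cannot be told apart from a change in RNA per cell.

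Haem released from haemoglobin is opened by haem oxygenase to biliverdin, carbon monoxide and iron, and the iron that is not used is stored in ferritin shells built of heavy and light chains. The iron regulatory proteins IRP1 and IRP2 sense cellular iron and bind iron-responsive elements, short RNA hairpins, in the messages for ferritin, the transferrin receptor and other iron genes, which blocks ferritin translation and stabilises the receptor message when iron is scarce. In brain, oligodendrocytes and microglia hold much of the ferritin, and haem oxygenase 1 rises in glia exposed to haem. In sickle cell disease, haem is released from lysed red cells.

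Across the series no gene passed. Limma's test with Benjamini-Hochberg adjustment called 0 of 9685 features (genes, or single probes without 1 symbol) in NY1DD (0.0%), 0 in C57BL/6J (0.0%) and 0 between the strains (0.0%). At an unadjusted p under 0.05 it called 809 in NY1DD (8.35% of features, with 3.46% positive and 4.89% negative), 671 in C57BL/6J (6.93%, with 1.76% and 5.17%) and 436 between strains (4.5%, with 2.75% higher and 1.76% lower in NY1DD). Usable probes ran from 11155 to 11413 per array, and the SD of an array's log2 ratios from 0.43 to 0.59. Pearson correlations between arrays ran from 0.0194 to 0.191 within NY1DD and from 0.124 to 0.148 within C57BL/6J. Across strains they ran from -0.0701 to 0.178. Those of NY1DD replicate 2 with the other arrays ran from -0.0701 to 0.0644. All were low, which limits every strain mean given here. Probe names end in a row letter and a column number, read here as the position of the clone in its 96-well source plate. NY1DD replicate 2 stood apart: the medians of its 96 well positions ran from -0.97 to 0.31, against limits of -0.45 and 0.33 on the other 5 arrays. The lowest of these medians, -0.97, belongs to position h6, which holds 118 fitted probes, Aco1 among them.

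**Figure D1:**
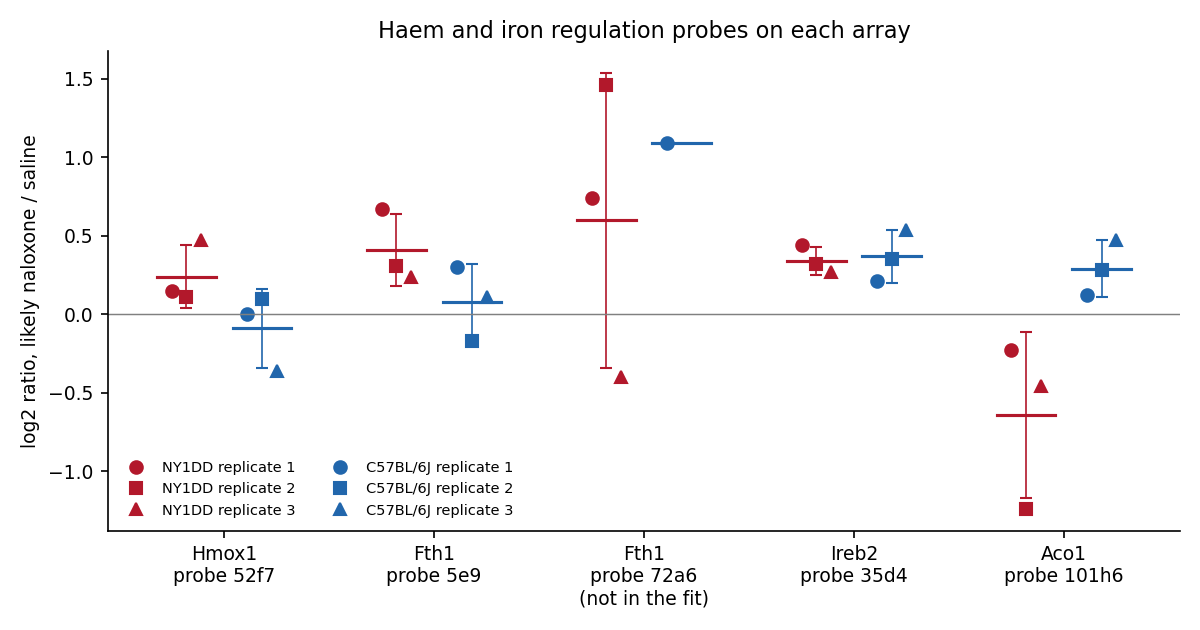
Log2 ratio (likely naloxone over saline) of each of the 5 probes on each of the 6 arrays; points are arrays, horizontal bars strain means, and whiskers the SD between arrays where at least 2 had a value. Ireb2 is above 0 on all 6 arrays, Aco1 is below 0 on the 3 NY1DD arrays and above 0 on the 3 C57BL/6J arrays, and Fth1 probe 72a6 ranges from -0.40 to 1.46.

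The start regions of 3 genes are printed here for reading beside the ratios, because they are the 2 iron regulatory proteins and the ferritin heavy chain, whose message these proteins bind; Hmox1 has no entry in the table used. Each line gives the 250 bases before a RefSeq transcript start (GRCm38.p6, plus strand, 5′ to 3′), with capitals marking matches on either strand to the GC box (GGGCGG) or the CCAAT box (CCAAT).
Fth1, chr19:9982396-9982645: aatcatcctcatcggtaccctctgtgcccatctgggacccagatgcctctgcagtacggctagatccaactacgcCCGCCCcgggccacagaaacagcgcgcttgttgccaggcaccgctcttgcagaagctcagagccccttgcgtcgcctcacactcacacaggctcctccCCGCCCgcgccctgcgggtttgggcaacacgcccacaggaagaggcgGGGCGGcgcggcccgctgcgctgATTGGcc
Ireb2, chr9:54863505-54863754: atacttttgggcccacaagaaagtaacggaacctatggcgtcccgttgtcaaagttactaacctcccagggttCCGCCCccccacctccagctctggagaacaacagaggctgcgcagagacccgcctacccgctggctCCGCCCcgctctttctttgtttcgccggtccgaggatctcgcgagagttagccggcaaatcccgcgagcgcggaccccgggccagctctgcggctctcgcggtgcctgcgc
Aco1, chr4:40143015-40143264: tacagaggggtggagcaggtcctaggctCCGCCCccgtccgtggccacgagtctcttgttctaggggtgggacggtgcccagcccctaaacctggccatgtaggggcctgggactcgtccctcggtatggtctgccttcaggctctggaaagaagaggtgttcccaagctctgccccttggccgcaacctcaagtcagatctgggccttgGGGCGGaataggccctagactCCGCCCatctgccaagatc
The Fth1 window held 3 GC boxes and 1 CCAAT box, the Ireb2 window 2 GC boxes and the Aco1 window 3 GC boxes. Of 32851 windows of the same length in the table, 32.7% held a GC box and 33.8% a CCAAT box. The core of the antioxidant response element (TGACNNNGC), which NRF2 binds, was in 10.2% of all windows and the start of a TATA box (TATAA) in 22.8%, and neither was in these 3 windows. Another Fth1 window, before the start at position 9980600, held 1 TATAA match and no other match. GC content was 66.8% for the printed Fth1 window, 63.6% for Ireb2 and 62.8% for Aco1, against a median of 52.4% over all windows.

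Hmox1 encodes haem oxygenase 1, the inducible enzyme of haem breakdown. Its log2 ratios, here and below in the order of replicates 1 to 3, were 0.15, 0.11 and 0.47 in NY1DD against 0.00, 0.10 and -0.36 in C57BL/6J. All NY1DD values were above all C57BL/6J values, but only by 0.01 at the nearest pair, NY1DD replicate 2 and C57BL/6J replicate 2. The NY1DD mean was 0.24 (SD 0.20, limma SE 0.15, n = 3), a ratio of 1.18. The C57BL/6J mean was -0.09 (SD 0.25, SE 0.15, n = 3), with a limma adjusted p of 0.985 over all features. The difference between strains was 0.33 (SE 0.22). NY1DD replicate 3 and C57BL/6J replicate 3 lay farthest from 0, at the 91.4th and 19.7th percentile of their arrays, while the 4 other values lay between the 50.6th and 64.4th. The NY1DD mean was 0.13 without NY1DD replicate 3, and the C57BL/6J mean was 0.05 without C57BL/6J replicate 3.

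The strains did not overlap for 9.41% of the 9175 features with all 6 values (NY1DD higher for 5.21%, lower for 4.2%), and Hmox1 and Aco1 were the 2 of the 4 genes for which they did not; as the genes were chosen on these values, nothing is read from that count. The median of position f7, where Hmox1 lies, was -0.27 on NY1DD replicate 3 and 0.20 on NY1DD replicate 2. With the median of the well position subtracted, Hmox1 was at 0.24, -0.09 and 0.73 in NY1DD and 0.08, 0.07 and -0.31 in C57BL/6J, and the strains overlapped. The difference between means, 0.35, was about as large as before.

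The other enzymes of haem breakdown had means near 0. Hmox2 encodes the constitutive haem oxygenase, abundant in brain, and averaged 0.04 in NY1DD (SD 0.23, n = 3) and 0.08 in C57BL/6J (SD 0.15, n = 3) over 2 probes. The 2 probes read 0.02 and -0.46 on NY1DD replicate 2, and -0.22 and 0.21 on C57BL/6J replicate 2. Blvrb, a biliverdin reductase, averaged 0.00 (SD 0.21, n = 3) and 0.07 (SD 0.11, n = 3). These were the 2 measured of 3 other genes listed for haem breakdown. Their strain differences were -0.03 (SE 0.21) for Hmox2 and -0.07 (SE 0.20) for Blvrb, each smaller than its SE.

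Fth1 encodes the ferritin heavy chain, the subunit that oxidises iron for storage. Probe 5e9, the fitted one, read 0.67, 0.31 and 0.24 in NY1DD and 0.30, -0.17 and 0.11 in C57BL/6J. The NY1DD values were all positive and overlapped the C57BL/6J values, since C57BL/6J replicate 1 lay between NY1DD replicates 2 and 3. The NY1DD mean was 0.41 (SD 0.23, SE 0.16, n = 3), a ratio of 1.32, and 6.44% of features had a higher NY1DD mean. The C57BL/6J mean was 0.08 (SD 0.24, SE 0.16, n = 3, limma adjusted p = 0.985). The strain difference of 0.33 (SE 0.22) was 0.20 without NY1DD replicate 1 and also 0.20 without C57BL/6J replicate 2, and the C57BL/6J mean was -0.03 without C57BL/6J replicate 1.

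Probe 72a6, the other clone named Fth1, gave a different picture. It read 0.74, 1.46 and -0.40 in NY1DD and 1.09 on C57BL/6J replicate 1, had no value on C57BL/6J replicate 2, and stood at the lower limit of the deposited values, a ratio of 0.01, on C57BL/6J replicate 3. Its NY1DD SD was 0.94, against 0.23 for probe 5e9. The probes were 0.08 apart on NY1DD replicate 1 and 1.15, 0.64 and 0.79 apart on NY1DD replicates 2 and 3 and C57BL/6J replicate 1. Over genes with exactly 2 fitted probes, the median distance between them was 0.44, 0.40, 0.30 and 0.28 on those 4 arrays, so the Fth1 pair was closer than most on the first and wider than 79.5% to 88.4% of pairs on the others. With every probe admitted, the gene averaged 0.50 in NY1DD and 0.21 in C57BL/6J. With the value at the limit also counted, the C57BL/6J mean turned to -0.92, so the sign in wild-type mice rests on how 1 spot on 1 array is treated. Ferritin genes have near-identical processed copies, and a cDNA probe can bind the RNA of each.

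Ftl1, the ferritin light chain, is the partner of Fth1 in the storage shell. It read 0.77, -0.45 and 0.56 in NY1DD and 0.44, 0.39 and 0.24 in C57BL/6J. Only NY1DD replicate 2 was negative, and there the median of its well position, g12, was -0.87. The means were 0.30 in NY1DD (SD 0.65, SE 0.24, n = 3) and 0.35 in C57BL/6J (SD 0.10, SE 0.24, n = 3, limma adjusted p = 0.909). After the well position correction Ftl1 read 0.49, 0.42 and 0.40 in NY1DD and 0.31, 0.25 and 0.07 in C57BL/6J, and so was positive on all 6 arrays. The corrected mean was 0.44 (SD 0.05) in NY1DD and 0.21 (SD 0.12) in C57BL/6J, and the strains did not overlap, as for 5.44% of features with NY1DD higher after the correction. The strain difference thus turned from -0.06 (SE 0.33, with overlap) as measured to 0.23 once corrected. Fth1 after the same correction had means of 0.30 (SD 0.22) and 0.09 (SD 0.23). The corrected strain difference of Fth1 was 0.21, within its spread between arrays.

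**Figure D2:**
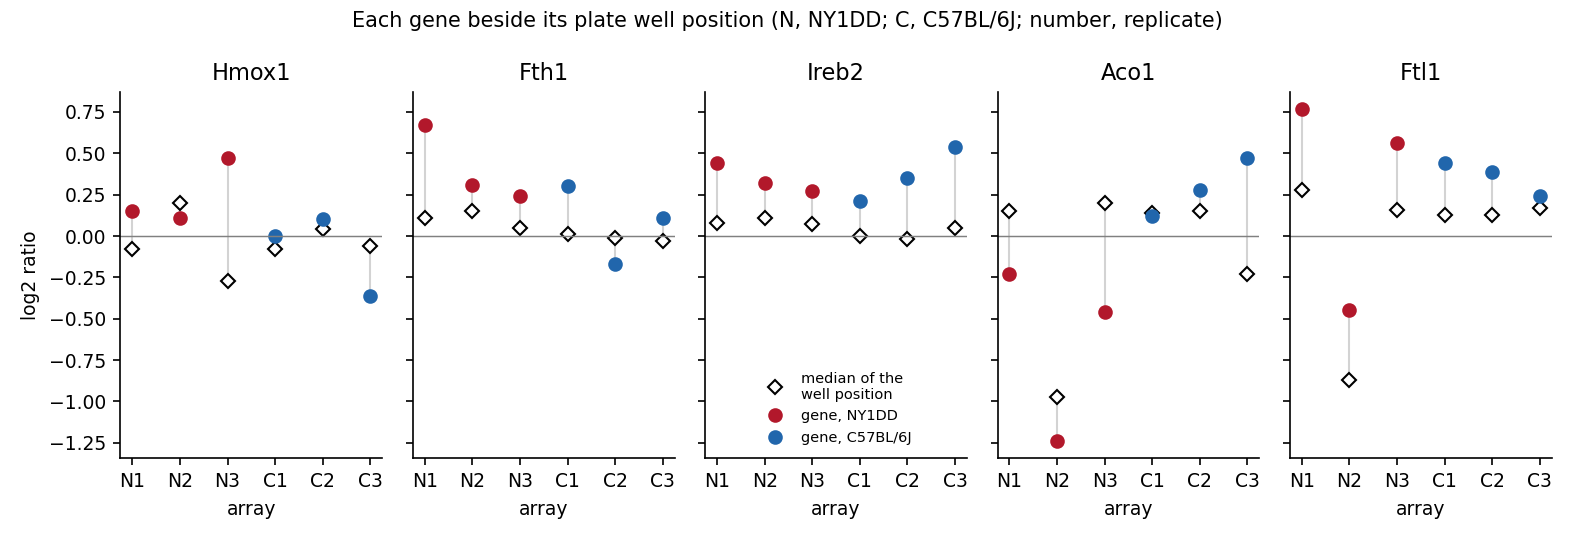
Log2 ratio of each gene (filled points) and the median of all fitted probes in the same plate well position (open diamonds) on each array, for the 4 genes and the ferritin light chain Ftl1. On NY1DD replicate 2 the well medians of Aco1 and Ftl1 are -0.97 and -0.87, while those of Hmox1, Fth1 and Ireb2 lie between 0.11 and 0.20.

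Ireb2 encodes IRP2, the iron regulatory protein that is degraded when iron is plentiful. Its log2 ratios were 0.44, 0.32 and 0.27 in NY1DD and 0.21, 0.35 and 0.54 in C57BL/6J. All 6 were positive, as for 2.45% of features with 6 values (4.66% were negative on all 6), and the strains overlapped. The means were 0.34 (SD 0.09, SE 0.13, n = 3) in NY1DD and 0.37 (SD 0.17, SE 0.13, n = 3) in C57BL/6J, ratios of 1.27 and 1.29. In C57BL/6J the limma p was 0.029 before and 0.615 after adjustment, so the gene did not pass. Its spread in NY1DD was small, with 7.05% of features having a smaller SD there. Each value lay between the 77.5th and 90.6th percentile of its array. The strain difference was -0.02 (SE 0.19), and with the arrays of 1 dye orientation a bias of this probe towards Cy5 cannot be told apart from naloxone.

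After the well position correction Ireb2 stayed positive on all 6 arrays, from 0.20 to 0.49, with means of 0.26 in NY1DD and 0.36 in C57BL/6J. Leaving out any 1 array moved the NY1DD mean between 0.29 and 0.38 and the C57BL/6J mean between 0.28 and 0.44. Fbxl5, whose product marks IRP2 for degradation, had values on 5 arrays, with 0.19 and 0.30 in NY1DD and 0.38, 0.16 and -0.18 in C57BL/6J. Its means were 0.24 (SD 0.08, n = 2) and 0.12 (SD 0.28, n = 3), and the strains overlapped.

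Aco1 encodes IRP1, which acts as a cytosolic aconitase while it holds an iron-sulphur cluster and binds RNA once the cluster is lost. Its log2 ratios were -0.23, -1.24 and -0.46 in NY1DD and 0.12, 0.28 and 0.47 in C57BL/6J. Every NY1DD array was below 0 and every C57BL/6J array above 0, a pattern held by 0.959% of features with 6 values (2.1% had the strains on opposite sides of 0 in either direction), and the nearest arrays of the strains were 0.34 apart. The NY1DD mean was -0.64 (SD 0.53, SE 0.21, n = 3), a ratio of 0.641, and 4.14% of features had a lower one. The C57BL/6J mean was 0.29 (SD 0.18, SE 0.21, n = 3), a ratio of 1.22, with a limma adjusted p of 0.923. NY1DD minus C57BL/6J was -0.93 (SE 0.30), and 2.09% of features had a lower difference. As Aco1 was chosen with such values known, nothing is read from these shares.

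The size of the Aco1 difference depends on NY1DD replicate 2, the array on which the median of its well position was -0.97. Without that array the NY1DD mean was -0.34 and the difference -0.63. With the well position correction and all arrays, Aco1 read -0.37, -0.26 and -0.67 in NY1DD and -0.03, 0.13 and 0.69 in C57BL/6J. The strains then still did not overlap, with the nearest arrays 0.24 apart (NY1DD was then lower without overlap for 4.84% of features), but C57BL/6J replicate 1 was no longer above 0. The corrected means were -0.43 (SD 0.21) and 0.27 (SD 0.38), and their difference was -0.70. The correction thus narrowed the NY1DD spread from 0.53 to 0.21 and widened the C57BL/6J spread from 0.18 to 0.38. Over the 15 alternatives run, the difference stayed negative, between -1.14 and -0.63. Among those that kept all arrays, only array scaling (-0.91) and the well position correction (-0.70) moved it, and the rest left it at -0.93. As the strains did not overlap, leaving out 1 array could not have turned its sign.

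**Figure D3:**
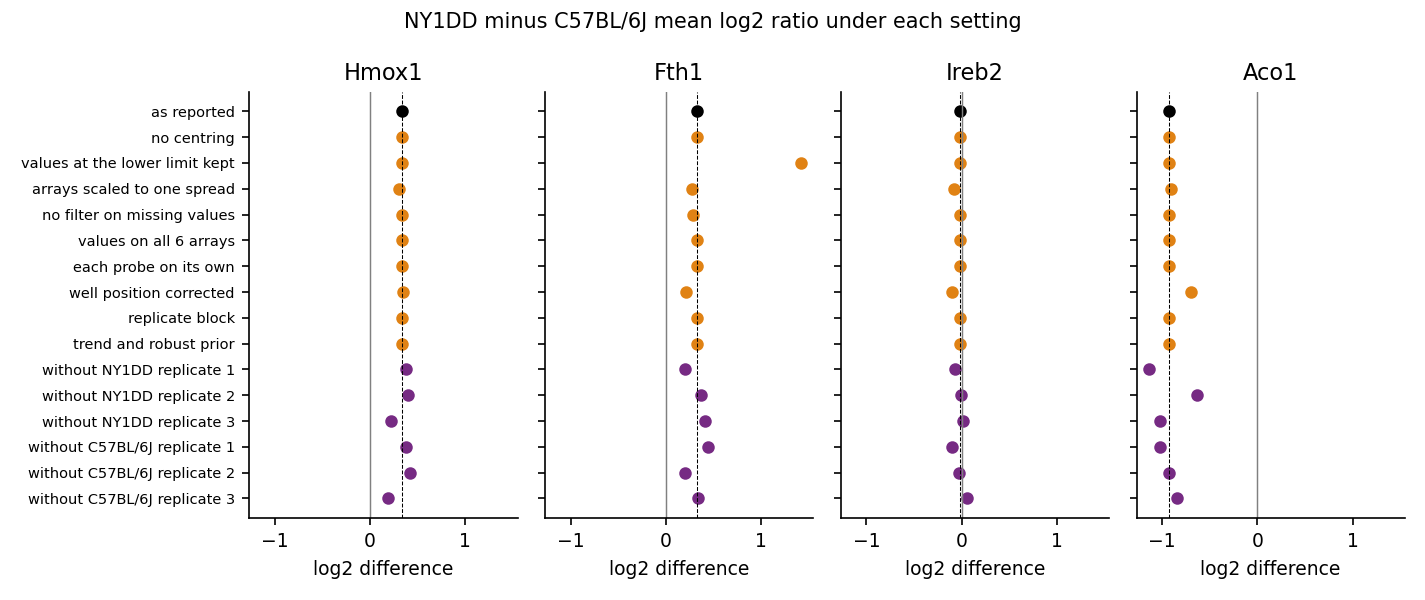
NY1DD minus C57BL/6J mean log2 ratio of the 4 genes as reported (black) and under each processing alternative (orange) or without 1 array (purple), on a shared axis; the dashed line marks the reported value. Aco1 lies between -1.14 and -0.63, Ireb2 between -0.10 and 0.06, and Fth1 reaches 1.42 where values at the lower limit are kept.

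The iron regulatory proteins were close to each other in wild-type mice and apart in sickle mice. Ireb2 minus Aco1 was 0.09, 0.07 and 0.07 in C57BL/6J against 0.67, 1.56 and 0.73 in NY1DD. Of 5856 genes with 6 values, 9 stayed at least as close to Ireb2 on the 3 C57BL/6J arrays (0.154%). This closeness was seen after the values were known, and it did not survive the well position correction, after which the C57BL/6J differences were 0.23, 0.24 and -0.20 and the NY1DD differences 0.74, 0.48 and 0.86. The strains did not overlap in either form, nor did they for Aco1 alone. No share over other gene pairs was taken, so nothing is read from this.

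Genes with the most similar pattern were found by the root mean square (RMS) difference of log2 ratios over the 6 arrays, among 5856 genes. For Aco1 they were Pemt (0.20), Mtmr4 (0.21) and Rnaseh2c (0.21), against a median RMS difference of 0.67. On NY1DD replicate 2 these 3 genes read -1.12, -0.94 and -1.43, and the medians of their well positions there were -0.12, -0.40 and -0.57. For Ireb2 the nearest were Cbx5 (0.10), Spry2 (0.10) and Srrm2 (0.11), against a median of 0.49. For Fth1 they were Usp34 (0.10), Epha5 (0.13) and Serp2 (0.13), against 0.48, and for Hmox1 they were Cystm1 (0.07), Eps15l1 (0.08) and Dnajb2 (0.09), against 0.42. As the smallest of so many distances on 6 arrays, these names describe likeness only.

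Of 125 other genes in 8 lists of haem, iron and antioxidant function, 53 were measured. In NY1DD 30 were positive (56.6%, against 47.5% of all features) and 23 negative, with a median log2 ratio of 0.04, against -0.02 over all features. In C57BL/6J the counts were again 30 (56.6%, against 49.9% of all features) and 23 (median 0.04, against 0.00 over all features). NY1DD minus C57BL/6J was positive for 25 (47.2%, against 48.3% of all features) and negative for 28 (median -0.03, against -0.01). By limma, 0 of the 53 passed in each comparison after adjustment. At an unadjusted p under 0.05 there were 2 in NY1DD (3.77%, against 8.35% of all features), 1 in C57BL/6J (1.89%, against 6.93%) and 1 between strains (1.89%, against 4.5%). Of the 52 with 6 values, the strains did not overlap for 4 (7.69%), against 9.41% of all features in either direction. All 4 were lower in NY1DD (4.2% of all features) and 0 were higher (5.21% of all features). These 4, named after their values were seen, were Hebp2, Trf, Ciao3 and Mafg. Ciao3, of cytosolic iron-sulphur assembly, read 0.00, -0.03 and 0.11 in NY1DD and 0.12, 0.16 and 0.26 in C57BL/6J.

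Hebp2, a haem-binding protein, read -0.54, -0.76 and -0.58 in NY1DD and 0.26, 0.15 and -0.40 in C57BL/6J. Its strain difference was -0.63 (SE 0.24, limma adjusted p = 0.969). Mafg, a small MAF protein that pairs with NRF2 and BACH1 on the Hmox1 enhancers, read -0.26, -0.34 and -0.29 in NY1DD and 0.03, -0.05 and -0.13 in C57BL/6J, a mean of -0.30 (SD 0.04) against -0.05 (SD 0.08). Gstm1, a glutathione transferase, was positive on all 6 arrays, as for 2.45% of features with 6 values. After the well position correction Gstm1 read -0.00 on NY1DD replicate 2. It was the gene at an unadjusted p under 0.05 in C57BL/6J, with a mean of 0.35 (SD 0.23, n = 3, limma adjusted p = 0.712). Keap1, which holds NRF2 inactive, averaged -0.01 (SD 0.08) and -0.10 (SD 0.23) over 3 probes. Its probes were far apart, at -0.32, 0.57 and -0.55 on NY1DD replicate 1, so these SDs hide their disagreement. None of these 4 genes passed.

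Trf, the iron carrier transferrin, read -0.10, -0.06 and -0.61 in NY1DD and 0.10, 0.02 and 0.09 in C57BL/6J, with a strain difference of -0.33 (SE 0.22). The 4 measured genes of iron uptake and export, Trf, Slc25a28, Hfe and Mcoln1, had NY1DD means from -0.36 to -0.15, where 52.5% of all features had a negative NY1DD mean. Apart from Trf, each had arrays on both sides of 0. Slc25a28, a mitochondrial iron carrier, read -0.08, -1.07 and 0.36, Hfe, a partner of the transferrin receptor, -1.17, -0.07 and 0.15, and Mcoln1, a lysosomal channel, 0.32, -0.42 and -0.35. Without NY1DD replicate 1 or without NY1DD replicate 2, 3 of the 4 means were negative. Over all features a positive mean was held by 47.5% in NY1DD and 49.9% in C57BL/6J, and a negative strain difference by 51.7%. Of 4 measured genes of iron storage other than Fth1, 1 was positive in NY1DD (Ftl1) and 3 were in C57BL/6J. NY1DD minus C57BL/6J was negative for 4 of 4 (median -0.23), but this rests on NY1DD replicate 2, where Ftl1, Pcbp3 and Prnp read -0.45, -1.31 and -0.99: without that array 3 of the 4 differences were positive (median 0.18), as were 3 of 4 after the well position correction (median 0.02). For iron-sulphur cluster assembly, which supplies the cluster that switches Aco1, 10 of 12 were positive in NY1DD (median 0.14) and 8 of 12 in C57BL/6J (median 0.03). For haem synthesis 1 of 4 was positive in each strain (medians -0.17 and -0.04), and for haem transport and binding 5 of 7 and 3 of 7 (medians 0.09 and -0.04). Antioxidant enzymes and their regulators were positive for 10 of 17 in NY1DD (median 0.04) and 7 of 17 in C57BL/6J (median -0.02). Among the other targets and partners of the iron regulatory proteins, 2 of 3 and 3 of 3 were positive (medians 0.03 and 0.12). Without NY1DD replicate 2, the NY1DD counts were 9 of 12 for cluster assembly (median 0.06), 2 of 7 for haem transport and binding (median -0.05), 11 of 17 for antioxidant genes (median 0.11) and 3 of 3 for targets and partners (median 0.27). Without C57BL/6J replicate 1, 3 of 4 genes of haem synthesis were positive in C57BL/6J (median 0.03), and without C57BL/6J replicate 2, 6 of 12 of cluster assembly were. In each of these lists 0 genes passed by limma in any comparison.

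**Figure D4:**
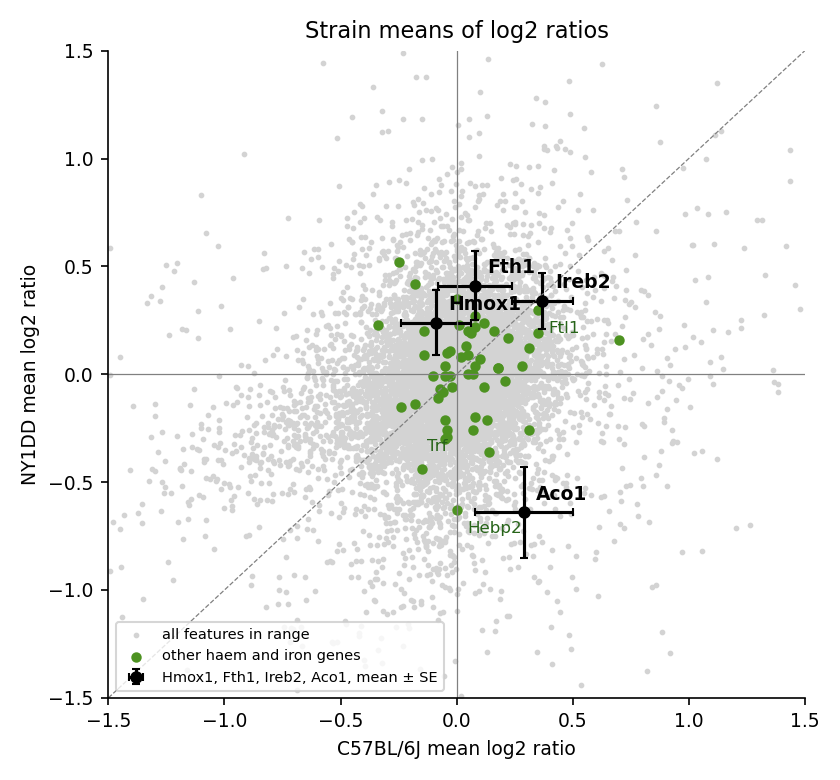
Mean log2 ratio in NY1DD against that in C57BL/6J for 9608 of 9685 features (grey). The other 77 lie beyond 1.5 on an axis. Green points are the 53 other genes of the haem, iron and antioxidant lists. Black points are the 4 genes followed here, with limma SE on each axis, and the dashed line marks equal means. Aco1 lies below the line, at -0.64 in NY1DD and 0.29 in C57BL/6J, and Ireb2 lies near it, at 0.34 and 0.37.

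Markers of the cell types a brain sample can hold were read on the same arrays. The median of 14 oligodendrocyte markers, cells rich in ferritin and transferrin, ran from -0.04 to 0.09 over NY1DD arrays and from 0.04 to 0.13 over C57BL/6J arrays, and that of 5 measured of 15 microglia and macrophage markers from 0.13 to 0.35 and from -0.21 to 0.27. Trf is 1 of the 14 oligodendrocyte genes. The median of 11 astrocyte markers ran from -0.10 to -0.06 in NY1DD and from -0.02 to 0.04 in C57BL/6J. Of the 5 microglia and macrophage genes, 5 had a higher mean in NY1DD (median difference 0.25), and of the 11 astrocyte genes 9 had a lower one (median -0.17). Over all features 48.3% had a higher mean in NY1DD and 51.7% a lower one. The strains' array medians did not overlap for the astrocyte list and overlapped for the other 6 lists. For single features the share without overlap was 9.41%, but a median over several genes is an unlike measure. No share was taken over medians of other gene sets, so nothing is read from this. Neuron markers (17) ran from 0.03 to 0.23 and from -0.08 to 0.06, endothelial and mural markers (14) from 0.06 to 0.15 and from -0.03 to 0.09, and choroid plexus and ependyma markers (4 of 12) from 0.02 to 0.18 and from -0.10 to 0.25. Of 20 blood and red cell markers only the globin gene Hba-a2 was measured, at 0.80, -0.66 and -0.36 in NY1DD and -0.81, 0.88 and -0.53 in C57BL/6J, so blood in the tissue could hardly be followed. The part of cell make-up in the values of the 4 genes was not tested.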

How the data were processed

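The deposited values are natural log ratios of the 2 channels of each array; their normalisation, background correction and spot filter were not given in the sources used here. The lowest value, the natural log of 0.01, gave the base. Depth or signal over background is unknown. After 30 control spots were left out, ratios were put on the log2 scale, 293 values at the lower limit were set to missing, probes with under 2 values in a strain were dropped, arrays were centred on their median and probes of 1 symbol averaged, which left 11340 probes in 9685 features, 6146 of them genes. Annotation gave 1 symbol for 7906 probes, several for 297 and none for 3299. Strain means over the 6 arrays were estimated with limma 3.58.1 in R 4.3.3 (two-sided tests, Benjamini-Hochberg threshold 0.05 over all features); the script was tested on simulated data. The 4 genes, the gene lists and the alternatives were chosen with earlier results of these data known. Named by rule are the 4 genes, directly linked genes where measured (Hmox2, Blvrb, Ftl1, Trf, Fbxl5 and Keap1), listed genes with unadjusted p under 0.05 (up to 3 per side and comparison) and, for each of the 4, the 3 nearest genes. Outside this rule, Ciao3, Pcbp3 and Prnp were named after their values were seen. So were Slc25a28, Hfe and Mcoln1, the other measured genes of iron uptake and export, and Hba-a2, the only measured blood marker. Replicate numbers in the titles are not stated to pair arrays and were not used to pair them. Same-numbered arrays' deviations from strain means correlated at -0.0666, 0.0508 and 0.0197. Differently numbered ones ran from -0.0854 to 0.0745. With 3 arrays a strain these values cannot exclude a pairing. All 4 genes were found in RefSeq by symbol. The alternatives tried are in the closing section.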

Additional observations from a re-analysis of the deposited data

Results flagged for a closer look

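Among the genes named in the text, 3 had every NY1DD array below 0 and every C57BL/6J array above it. The same pattern was held by 88 of 9175 features (0.959%), and 193 (2.1%) had the strains on opposite sides of 0 in either direction. As Aco1 was chosen with its values known and Mtmr4 for its likeness to Aco1, nothing is read from the count of 3. The pattern itself was not tested. Limma passed no feature between strains, and Trf had an adjusted p of 0.969 there. Aco1 had NY1DD minus C57BL/6J of -0.93 on the log2 scale, Trf, the iron carrier transferrin, -0.33, and Mtmr4, a phosphoinositide phosphatase named for its likeness to Aco1 and so not independent of it, -0.97. With the well position correction the differences were -0.70, -0.39 and -0.84, and Aco1 then had C57BL/6J replicate 1 at -0.03, while Trf and Mtmr4 kept opposite signs in the strains.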

How the results depend on the processing

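Of the 15 alternatives, 6 left out 1 array each and 9 changed centring, the lower limit, array spread, the filter on missing values (2 ways), probe averaging, well position, the prior or the replicate number. Under each of them limma passed 0 features in NY1DD, C57BL/6J and between strains; the smallest adjusted p ran from 0.153 to 0.705, 0.063 to 0.788 and 0.352 to 1.0. With a replicate block in the fit 0 features passed in each comparison, and 798, 690 and 498 had an unadjusted p under 0.05; no call changed. Without 1 array, the C57BL/6J mean of Hmox1 ran from -0.18 to 0.05 and that of Fth1 from -0.03 to 0.20. Signs turned in C57BL/6J for Hmox1 without C57BL/6J replicate 3 (0.05), and for Fth1 without C57BL/6J replicate 1 (-0.03) and with values at the lower limit kept (-0.92); the last comes from 1 spot of probe 72a6, which enters the mean by construction. The strain difference of Fth1 was then 1.42. Ireb2 in each strain and Aco1 in each strain kept their sign in all 15. Leaving out 1 array could not have turned these signs, as each gene had 1 sign over the arrays of a strain. Several other alternatives left these means as they were. The Ireb2 strain difference, near 0, kept its sign in 13. Medians of the 53 other genes stayed between -0.01 and 0.07 in NY1DD, 0.01 and 0.07 in C57BL/6J, and -0.09 and 0.06 between strains. With 3 arrays a strain and no intensities, spots near background cannot be told from bright ones.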
